A study of Mus musculus with 2 samples.

Results

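Proteins that sense danger inside macrophages, relay the signal and open the plasma membrane are encoded by Nlrp3, Pycard, Casp1, Casp4, Gsdmd, Nlrc4, Naip2, Naip5, Nlrp1b and Mefv. These 10 inflammasome and pyroptosis genes were chosen by name, and all 10 were found by symbol among the 55536 annotated genes of the tables. RNA was measured in macrophages derived from bone marrow, primary phagocytes of the mouse strain C57BL/6J, and only the nucleoplasmic fraction, which the labels also call nuclear, was used. The cells first met 100 ng/ml lipid A for 12 h, then went 12 h without it after a wash, and last met 100 ng/ml lipid A for another 50 min. Lipid A is the portion of endotoxin to which Toll-like receptor 4 responds. Ribosomal RNA was depleted and total RNA was sequenced in 2 libraries of this 1 group. The input was 500 ng of RNA in replicate 1 and 1 µg in replicate 2, so input and replicate cannot be told apart. The labels call the libraries biological replicates and give both the same donor entry, and age and sex were not collected. No untreated or once-treated group was analysed here, so the values below are levels in restimulated cells. The p-values of the exact binomial test below compare only these libraries and cover counting error, not the spread between cultures.

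Inflammasomes are protein platforms that form in the cytosol after a sensor meets a microbial product or a disturbance of the cell. Sensors recruit the adaptor ASC, encoded by Pycard, or bind caspase-1 themselves, and caspase-1 then cuts the interleukin-1β and interleukin-18 precursors and gasdermin D. The released part of gasdermin D forms pores in the plasma membrane, which leads to the lytic death called pyroptosis. In a noncanonical branch, the product of mouse Casp4, widely known as caspase-11, binds endotoxin in the cytosol and cuts gasdermin D itself. In macrophages, signals from Toll-like receptors are known to prime this system by raising transcription of Nlrp3, Casp4 and Il1b.

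The libraries held 20612114 and 22772087 expected counts (estimated reads per gene) in annotated genes. Levels are given in TPM, which is scaled by transcript length so that genes can be compared within a library. Protein-coding genes held only 21.04% and 21.95% of all TPM. The reference for levels was formed by 12140 protein-coding genes that had at least 10 counts in the libraries together, with a median of 3.58 TPM and a 90 percentile of 28.7 TPM. All 8 macrophage markers lay above that median, at 112 TPM in the median, with sums of 1990 and 2106 TPM in replicates 1 and 2. The 26 markers of 6 other cell types summed to 10.01 and 14.82 TPM, 16 of the 26 had under 10 counts over both libraries, and Ly6g, which defines neutrophils, was at 0 counts in both. In such bulk RNA, fewer cells of a type and less RNA per cell cannot be told apart.

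Of the 10 genes, 5 stood above the 90 percentile of the reference and 9 stood above its median. Their median was 25.9 TPM (27.0 in replicate 1 and 24.8 in replicate 2). The order of mean levels ran from Nlrp3 through Casp4, Gsdmd, Mefv, Casp1, Nlrp1b, Naip5, Naip2 and Nlrc4 down to Pycard. Neighbours in this order did not overlap between the libraries except Nlrp1b with Naip5 and Naip5 with Naip2. Gsdmd and Mefv came close, at 56.65 and 56.08 TPM in replicate 1, where their intervals in the deposited table overlapped. The plot of levels by gene shows that, over all annotated transcripts, the sensor Nlrp3 and the endotoxin-binding caspase led the set. The adaptor that joins sensors to caspase-1 was at its foot. The levels of Casp4 and Gsdmd include noncoding transcripts that keep intron sequence. Their leading coding transcripts, Casp4-201 and Gsdmd-201, averaged 41.38 and 37.56 TPM, below the 49.22 TPM of Mefv as a whole gene. All transcripts of Mefv are protein coding. In replicate 2 alone, Gsdmd-201 was above Mefv, at 46.48 against 42.35 TPM. Mefv-201, the leading transcript of Mefv, averaged 30.61 TPM, below both Casp4-201 and Gsdmd-201.

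**Figure D1:**
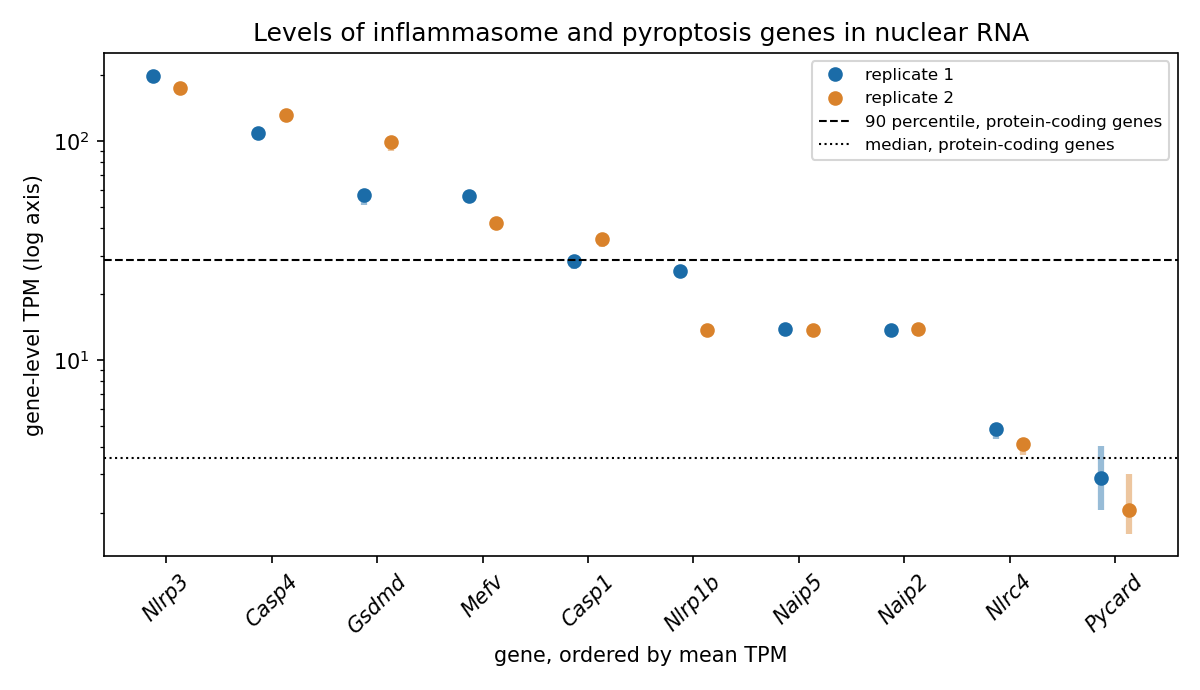
Gene-level TPM (log axis) of the 10 genes in replicate 1 (blue) and replicate 2 (orange), ordered by mean TPM, with the intervals of the deposited table as pale bars and the 90 percentile (28.7 TPM) and median (3.58 TPM) of protein-coding genes as dashed and dotted lines. Nlrp3 reached 198.8 and 174.35 TPM, whereas Pycard, at 2.89 and 2.07 TPM, lay below the median line in both libraries.

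Among the sensors, Nlrp3, which responds to potassium loss and many forms of cell damage, had 198.8 TPM in replicate 1 and 174.35 TPM in replicate 2, a mean of 186.6 ± 17.3 (SD, n = 2) that placed it at the 98.7 percentile of the reference. It rested on 24588 and 22436 counts, the most of the set. Both libraries were thus high. The gene lies on chromosome 11 from 59541568 to 59566956 on the plus strand of mm10, and its 3 annotated transcripts use 2 first exons. Nlrp3-201 starts at 59541568, Nlrp3-202 at 59542686 and Nlrp3-203 at 59542756 in the same exon as Nlrp3-202. Nlrp3-201 and Nlrp3-202 each have 3099 coding bases. RefSeq's promoter table (GRCm38.p6) holds 2 entries for the gene, with starts at 59541569, 1 base into Nlrp3-201, and at 59542686, the start of Nlrp3-202. The 100 bases before each RefSeq start are shown because the transcript tables disagreed on which start was used more; none of the letters searched for below was found, so there are no capitals.

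Nlrp3, before the RefSeq start next to that of Nlrp3-201 (chr11:59541469-59541568, plus strand): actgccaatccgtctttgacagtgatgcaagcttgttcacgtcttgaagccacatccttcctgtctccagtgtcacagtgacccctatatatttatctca
Nlrp3, before the RefSeq start at that of Nlrp3-202 (chr11:59542586-59542685, plus strand): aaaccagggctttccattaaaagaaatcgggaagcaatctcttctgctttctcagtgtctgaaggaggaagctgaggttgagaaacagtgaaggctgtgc

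In the alignment-based transcript table, Nlrp3-201 had 166.8 and 127.6 TPM and Nlrp3-202 had 32.02 and 46.78 TPM in replicates 1 and 2. Transcripts of the second start (Nlrp3-202 and Nlrp3-203) took 16.4% and 27.3% of the gene's estimated counts there. In the index-based table, which was made from the reads and a transcript index, they took 51.8% and 61.1%. The share of the second start was higher in replicate 2 in both tables, but the tables differed from each other by more than the libraries did. Only 36 bases of Nlrp3-201 and 71 of Nlrp3-202 lie in no other transcript of the gene. The 71 leave out first-exon bases that Nlrp3-202 shares with Nlrp3-203, so they understate the bases that mark the second start. How many reads tell the starts apart was not counted.

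Mefv encodes pyrin, the sensor of bacterial toxins. It had 56.08 and 42.35 TPM (mean 49.22 ± 9.71, SD, n = 2; 94.3 percentile) from 5086 and 3990 counts, and both libraries lay above the 90 percentile. The gene lies on chromosome 16 from 3707218 to 3718097 on the minus strand. Among other differences, its transcripts differ in 90 coding bases that extend an exon of Mefv-202 into the intron that follows in Mefv-201 and Mefv-203. They are shown in capitals (3715193 to 3715282), between 20 bases of the exon and 20 bases of the next exon as spliced.

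Mefv-202 (spliced bases between chr16:3713810-3715302, minus strand): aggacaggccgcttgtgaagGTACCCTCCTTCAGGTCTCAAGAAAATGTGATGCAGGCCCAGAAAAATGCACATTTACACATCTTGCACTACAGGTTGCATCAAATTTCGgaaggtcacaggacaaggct

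The transcript with these 90 bases took 27.8% and 29.4% of the estimated counts of Mefv in the alignment-based table and 30.4% and 33.4% in the index-based table. This share was thus nearly the same in both libraries and both tables. It does not rest on the 90 bases alone, since 512 bases of Mefv-201 and 155 of Mefv-202 lie in no other transcript of the gene. Mefv-201, which skips the 90 bases, led with 35.25 and 25.97 TPM, against 16.9 and 13.48 TPM of Mefv-202.

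Nlrp1b encodes a sensor that proteases such as anthrax lethal factor activate, and the gene is known to differ much between mouse strains. It had 25.59 TPM in replicate 1 and 13.68 TPM in replicate 2 (mean 19.63 ± 8.42, SD, n = 2; 85 percentile), from 3272 and 1829 counts. Replicate 1 was the higher, and replicate 2 lay at the level of the neighbours Naip5 and Naip2. The gene lies on chromosome 11 from 71153102 to 71230733 on the minus strand. Its transcripts carry either of a pair of long coding exons, an upstream one of 1666 bases in Nlrp1b-201, Nlrp1b-204 and Nlrp1b-205 and a downstream one of 1675 bases in Nlrp1b-202 and Nlrp1b-203. The exons are 84.5% identical over 1666 aligned bases. The 80 bases in which they differ most are shown because such differences let reads be assigned to either exon; capitals mark the 29 bases that differ.

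Nlrp1b upstream exon (chr11:71218428-71218507, minus strand): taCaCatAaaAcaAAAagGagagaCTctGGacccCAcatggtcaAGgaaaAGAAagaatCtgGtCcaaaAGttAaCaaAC
Nlrp1b downstream exon (chr11:71182770-71182849, minus strand): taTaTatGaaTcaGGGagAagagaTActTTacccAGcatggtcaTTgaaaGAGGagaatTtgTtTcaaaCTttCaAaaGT

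Transcripts with the downstream exon took 36.1% and 36.5% of the estimated counts of Nlrp1b in replicates 1 and 2 of the alignment-based table, and 37.5% and 37.4% in the index-based table. These 4 shares were nearly equal, while the level of the gene was lower in replicate 2. Single transcripts moved more: Nlrp1b-202 had 6.45 and 1.17 TPM in replicates 1 and 2, while Nlrp1b-203, with the same downstream exon, had 3.63 and 3.97 TPM. Only 2 bases of Nlrp1b-202 lie in no other transcript of the gene. The leading transcript was Nlrp1b-205, at 14.3 and 6.7 TPM, which is annotated as subject to nonsense-mediated decay (NMD), the pathway that removes messages with an early stop codon. Nlrp1b-201, the remaining transcript past 10% of the gene's TPM, had 0.61 and 1.54 TPM.

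Naip2 and Naip5 encode partners of Nlrc4 that bind bacterial proteins, Naip2 the inner rod of type III secretion systems and Naip5 flagellin. Naip5 had 13.86 and 13.69 TPM (mean 13.77 ± 0.12, SD, n = 2) and Naip2 had 13.66 and 13.83 TPM (mean 13.75 ± 0.12, SD, n = 2), both at the 79.4 percentile. The 2 genes could not be ordered, since their library values overlapped. They lie side by side on the minus strand of chromosome 13, Naip2 from 100144063 to 100202092 and Naip5 from 100211739 to 100246323. Their coding sequences are 89.99% identical, and that of Naip5 is 96.96% identical to Naip6, which also senses flagellin and stood at 15.5 TPM. Of the 50-base stretches of the leading transcript, 36.9% in Naip5, mostly with Naip6, and 19.9% in Naip2, mostly with Naip1, also occur in another gene. The deposited posterior SD of the count was 2.59 and 4.44 counts for Naip5 and 0.74 and 1.78 for Naip2, so the authors' model left little spread, but reads of such copies can be given to the wrong gene and levels within this family are uncertain. The start of Naip2 was not settled: Naip2-201 took 84.1% and 90.7% of the estimated counts in the alignment-based table and 31.9% and 15.8% in the index-based table, with 23 bases in no other transcript.

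Nlrc4, which assembles with the NAIP proteins and binds caspase-1, was lower than its partners at 4.85 and 4.13 TPM (mean 4.49 ± 0.509, SD, n = 2; 55.0 percentile), from 602 and 546 counts. Its gene lies on chromosome 17 from 74425438 to 74459142 on the minus strand. Nlrc4-202 is annotated as an NMD transcript with 348 coding bases against 3072 in Nlrc4-201. It lacks 14 bases at the start of a coding exon, shown in capitals (74447111 to 74447124) between 30 bases of the exon before and 30 further bases of the same exon, as spliced.

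Nlrc4-201 (spliced bases between chr17:74447081-74447987, minus strand): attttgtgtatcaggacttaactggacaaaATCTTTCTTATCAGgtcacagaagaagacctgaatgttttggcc

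Transcripts without the 14 bases took 36.9% and 31.2% of the estimated counts of Nlrc4 in the alignment-based table but 4.73% and 3.04% in the index-based table. The tables thus gave different accounts of this gene. These shares do not rest on the 14 bases alone and do not measure use of that exon start. Of Nlrc4-201, 1605 bases lie in no other transcript of the gene, and of Nlrc4-202, 0 do. Its index-based estimated counts were also 2.86 and 2.57 times its gene-level counts, ratios at the 97.4 and 98.4 percentile of 7839 protein-coding genes whose medians were 1.56 and 1.25.

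**Figure D2:**
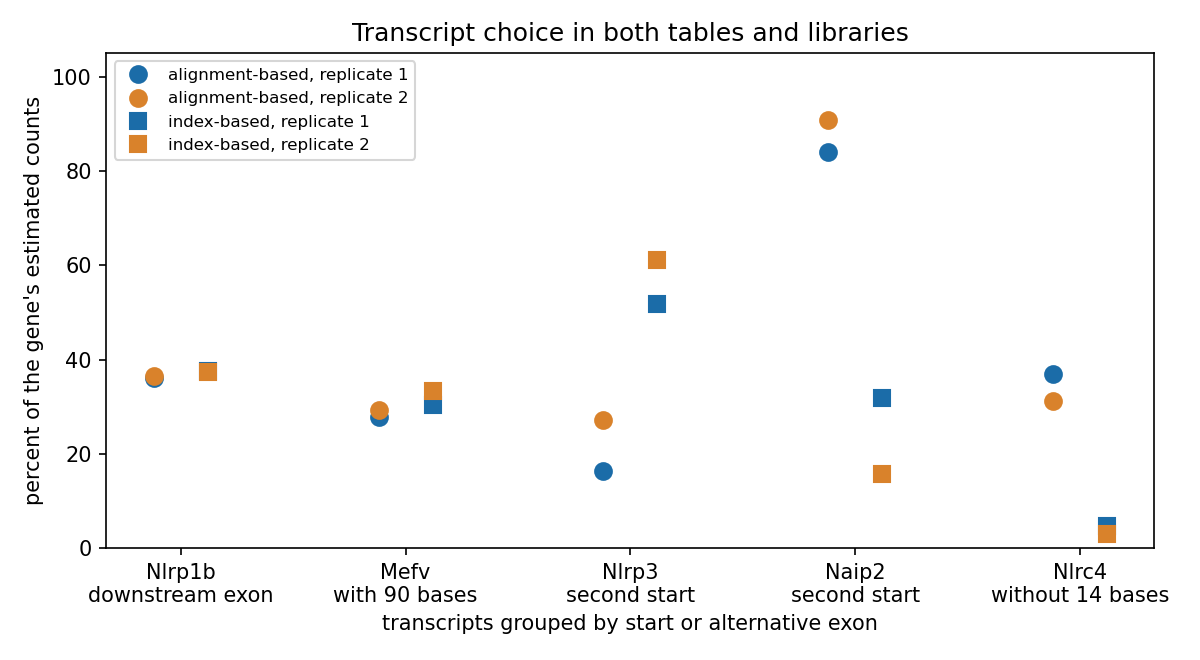
Percent of each gene's estimated counts in the named transcript group, in the alignment-based (circles) and index-based (squares) tables, for replicate 1 (blue) and replicate 2 (orange). All 4 values lie between 36.1% and 37.5% for the downstream exon of Nlrp1b and between 27.8% and 33.4% for the 90 bases of Mefv, whereas the tables stand apart for the starts of Nlrp3 and Naip2 and for Nlrc4.

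Pycard encodes ASC, the adaptor that links Nlrp3 and pyrin to caspase-1. It had the lowest level of the set, with 2.89 and 2.07 TPM (mean 2.48 ± 0.58, SD, n = 2; 41.6 percentile) from 263 and 218 counts. Both values were below the reference median, and the intervals of the deposited table ran from 2.07 to 4.05 TPM and from 1.61 to 3.01 TPM. The gene lies on chromosome 7 from 127989708 to 127993867 on the minus strand. Pycard-201, with 2.16 and 1.74 TPM, is annotated at 3800 bases of which 579 are coding, so its TPM divides the reads by a long transcript. Pycard-202, with 493 bases, had 0.73 and 0.33 TPM from 6.71 and 3.45 estimated counts. Of the 50-base stretches of Pycard-201, 11.8% also occur in another gene, nearly all in Gm45205, an unclassified gene on the opposite strand that overlaps it and held 27 and 24 counts. The sources used here do not say how strand was handled, so reads of this overlap cannot be told apart.

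Of the caspases, Casp1 encodes the enzyme that canonical inflammasomes activate. It had 28.42 and 35.76 TPM (mean 32.09 ± 5.19, SD, n = 2; 91.2 percentile) from 1206 and 1598 counts in its only annotated transcript, Casp1-201. Replicate 1 lay just above the 90 percentile of its own library, 27.9 TPM, and replicate 2 above its 29.7 TPM. Casp4 was higher in both libraries, at 109.04 and 131.31 TPM (mean 120.2 ± 15.7, SD, n = 2; 97.9 percentile) from 3336 and 3904 counts. The genes are neighbours on the plus strand of chromosome 9, Casp1 from 5298517 to 5307265 and Casp4 from 5308828 to 5336783. Their coding sequences are 60.59% identical, and their leading transcripts share no 50-base stretch with any other gene.

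RefSeq's promoter table held 12 entries for 9 of the 10 genes. Windows of 250 bases before to 50 after each start were searched on both strands for GGGANTTCC, a form of the kB site bound by NF-κB, GAAANNGAA, from the core of the interferon-stimulated response element, and TATAAA. No matches overlapped. Of the 9 genes, only Casp4 held the kB letters, at 92 to 84 bases before its RefSeq start at 5308849 on the plus strand and at 39 to 31 bases before it on the opposite strand. Of 32817 promoters of the same length, 1.68% hold these letters. GAAANNGAA, held by 8.55% of promoters, was found only across the RefSeq start of Naip2, and TATAAA, held by 13.6%, only in the window of Naip5, from 236 to 231 bases before its RefSeq start, each on the opposite strand. A match describes the letters of the window and not binding. The 200 bases before this start of Casp4, the most abundant caspase of the set, are shown with both kB matches in capitals.

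Casp4, before the RefSeq start at 5308849 (chr9:5308649-5308848, plus strand): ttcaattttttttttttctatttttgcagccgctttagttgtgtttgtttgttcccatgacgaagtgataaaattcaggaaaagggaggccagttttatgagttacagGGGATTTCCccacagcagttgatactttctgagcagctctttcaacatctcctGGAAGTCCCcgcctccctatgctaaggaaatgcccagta

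Gsdmd encodes gasdermin D, the pore former that both caspases cut. It had 56.65 TPM in replicate 1 and 98.65 TPM in replicate 2 (mean 77.65 ± 29.7, SD, n = 2; 96.6 percentile), from 1886 and 3312 counts. Both libraries were above the 90 percentile, and replicate 2 was the higher. The gene lies on chromosome 15 from 75862327 to 75867408 on the plus strand.

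Among the members, only Casp4 and Gsdmd have transcripts annotated as retained introns, so the annotation sets which members can hold TPM there. Such transcripts keep intron sequence. These took 50.5% and 62.9% of transcript TPM of Casp4 in replicates 1 and 2 of the alignment-based table, and 64.1% and 72.0% in the index-based table. For Gsdmd they took 45.2% and 50.5%, and 45.4% and 58.4% in the index-based table. The median over 5155 protein-coding genes with such a transcript and 100 or more counts in both libraries was 21.4%, with Casp4 at the 92.7 percentile and Gsdmd at the 87.2 percentile. By estimated counts, which weigh long transcripts more, the shares were 29.9% and 43.0% for Casp4 and 19.9% and 22.6% for Gsdmd, against a median of 11.2%, at the 83.5 and 68.0 percentile. Coding transcripts held 39.99% and 29.82% of the TPM of Casp4 and 54.77% and 49.54% of that of Gsdmd. No test applies to these shares, which describe nuclear RNA as the authors' tables divide it. Reads of unspliced RNA that fall in the annotated intron stretches cannot be told apart here from those of retained-intron transcripts.

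**Figure D3:**
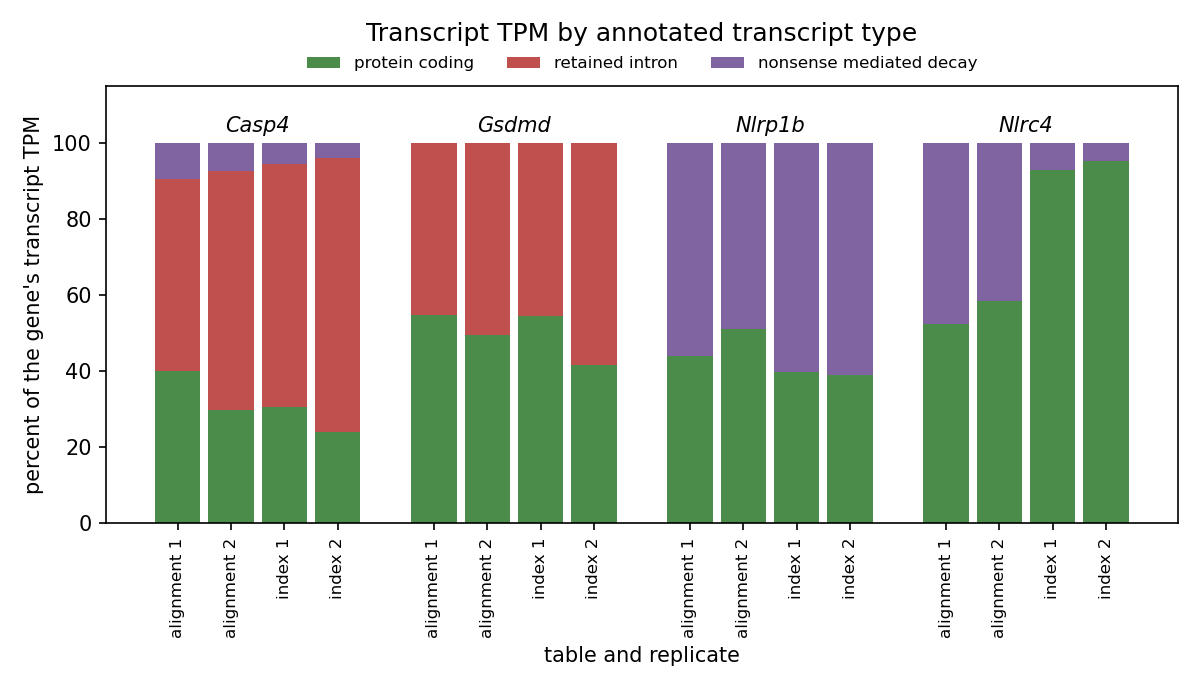
Percent of the transcript TPM of Casp4, Gsdmd, Nlrp1b and Nlrc4 in transcripts annotated as protein coding (green), retained intron (red) or nonsense mediated decay (purple), for replicates 1 and 2 of the alignment-based and index-based tables. Retained introns take from 45.2% to 72.0% in Casp4 and Gsdmd in all 8 bars, and the NMD share of Nlrc4 falls from 47.6% and 41.4% to 7.12% and 4.63% between the tables.

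The retained sequence came from introns near both ends of the genes. Casp4-207, at 26.96 and 40.61 TPM, keeps the last 277 of 707 bases of intron 3 of Casp4-201, and Casp4-205, at 18.91 and 26.92 TPM, keeps the start of intron 2, with 228 of its 1307 bases. Casp4-202, at 9.22 and 15.04 TPM, holds 711 of the 7453 bases of intron 7. All 3 were higher in replicate 2, whereas the full-length coding transcript Casp4-201 had 43.61 and 39.16 TPM. In Gsdmd, Gsdmd-205 (6.59 and 24.81 TPM) keeps 64 of 615 bases of intron 2, and Gsdmd-204 (5.52 and 17.89 TPM) keeps 255 of 512 bases of intron 3 and 71 of 74 bases of intron 8. Gsdmd-206 (13.51 and 7.08 TPM) keeps the whole of intron 9, which has 99 bases, and was the one that was lower in replicate 2. The coding transcript Gsdmd-201 had 28.64 and 46.48 TPM. The sequences across these exon and intron borders are shown because reads that span them can be given to the retained-intron transcripts. Unspliced RNA of the genes holds the same borders. Lower case marks exon bases that code in Casp4-201 or Gsdmd-201, and capitals mark the intron.

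Casp4-205, exon into intron 2 (chr9:5321473-5321552, plus strand): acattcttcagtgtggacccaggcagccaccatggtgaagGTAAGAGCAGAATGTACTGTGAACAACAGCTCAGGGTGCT
Casp4-207, intron 3 into exon (chr9:5323585-5323664, plus strand): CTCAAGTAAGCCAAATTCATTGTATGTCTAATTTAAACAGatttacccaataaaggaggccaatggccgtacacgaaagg
Gsdmd-205, exon into intron 2 (chr15:75863589-75863668, plus strand): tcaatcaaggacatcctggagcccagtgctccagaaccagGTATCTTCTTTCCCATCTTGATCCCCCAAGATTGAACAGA
Gsdmd-204, intron 3 into exon (chr15:75864909-75864988, plus strand): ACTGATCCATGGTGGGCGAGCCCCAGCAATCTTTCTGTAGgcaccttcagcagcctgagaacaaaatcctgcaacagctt
Gsdmd-206, whole intron 9 (chr15:75866661-75866819, plus strand): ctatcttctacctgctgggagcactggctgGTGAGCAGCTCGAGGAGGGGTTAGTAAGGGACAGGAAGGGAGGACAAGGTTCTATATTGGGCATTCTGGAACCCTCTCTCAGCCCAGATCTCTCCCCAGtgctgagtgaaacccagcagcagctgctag

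The retained-intron share was higher in replicate 2 for both genes. For Casp4 the difference was 12.4 percentage points in the alignment-based table and 7.97 in the index-based table, and for Gsdmd it was 5.24 and 13.1. The median difference over the 5155 genes was 1.59 and 0.911 points, and Casp4 lay at the 90.3 and 85.2 percentile and Gsdmd at the 70.5 and 94.5 percentile of these differences. With 1 library at each RNA input, the difference was not tested.

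NMD transcripts were the other annotated type with a large share. They held 55.88% and 48.98% of the TPM of Nlrp1b in replicates 1 and 2 of the alignment-based table, at the 97.3 percentile of 2545 protein-coding genes with such a transcript, whose median was 4.43%. In the index-based table they held 60.3% and 61.1%. In Nlrc4 they held 47.6% and 41.4%, but 7.12% and 4.63% in the index-based table. In Casp4 they held 9.48% and 7.29%. For Nlrp3, Mefv, Naip2, Naip5, Pycard and Casp1 every annotated transcript is protein coding, so no other type could hold TPM. The leading transcript by mean TPM was the same in both transcript tables for 7 of the 10 genes, the exceptions being Nlrp3 (Nlrp3-201 against Nlrp3-202), Naip2 (Naip2-201 against Naip2-202) and Casp4 (Casp4-201 against Casp4-205).

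The libraries were compared gene by gene with a two-sided exact binomial test on rounded counts, adjusted over 16140 genes by the Benjamini-Hochberg method, which compares these libraries and covers counting error only. A gene was called at an adjusted p under 0.05 with at least a 2-fold difference, and 6.62% of all genes tested were called. Of the 10 members, 0 were called, and 0 were called by edgeR's exact test with the dispersion set to 0.01 (background 4.55%) or 0.04 (background 1.21%). By adjusted p alone 8 of the 10 passed, as they did by unadjusted p under 0.05, beside 38.9% of all genes tested. A gene of many counts passes that rule at a small difference. The median log2 ratio of replicate 2 over replicate 1 was −0.12, with 4 genes above 0 and 6 below, beside 0.0 for all genes tested.

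**Figure D4:**
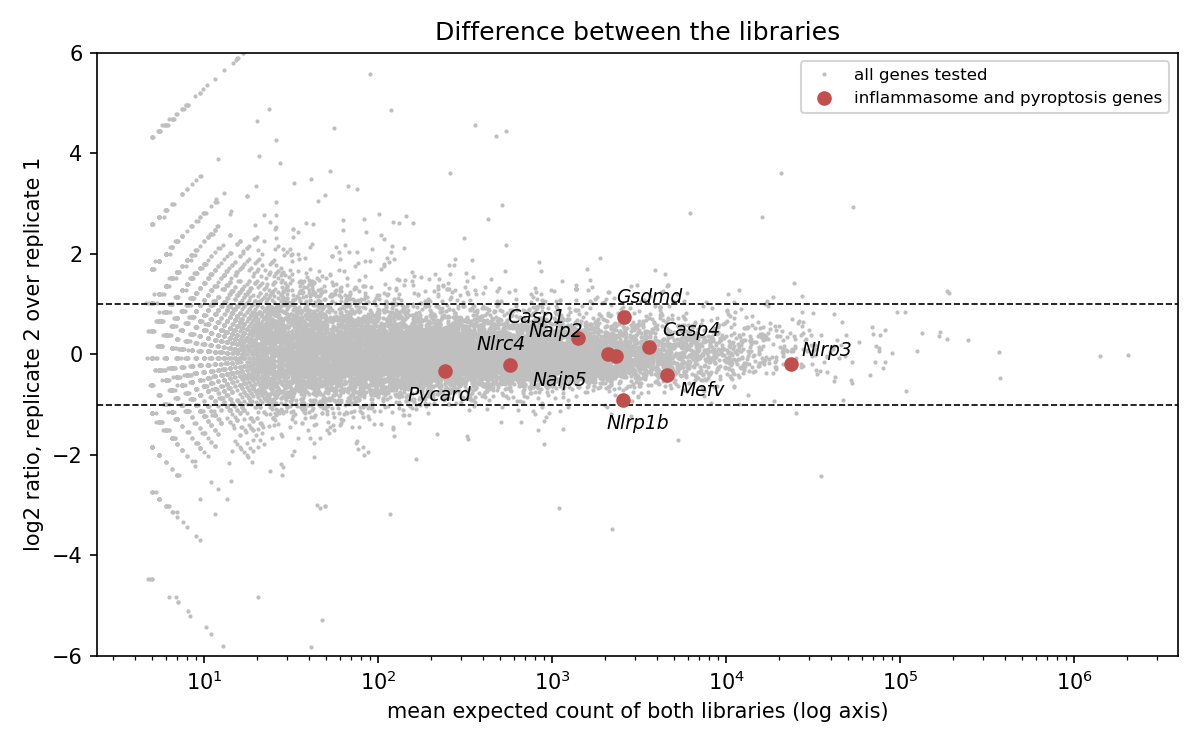
Log2 ratio of replicate 2 over replicate 1 against the mean expected count (log axis) for all genes tested (grey) and the 10 genes (red), with dashed lines at a 2-fold difference. All 10 lie between the lines, with Nlrp1b (−0.91) and Gsdmd (0.74) nearest to them.

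The largest differences were in opposite directions. Nlrp1b was 1.88-fold higher in replicate 1, a log2 ratio of −0.91 with an adjusted p of 1.87e-106 in the exact binomial test. Gsdmd was 1.67-fold higher in replicate 2, a log2 ratio of 0.74 with an adjusted p of 1.49e-71 in the same exact test. With the dispersion set to 0.04 in edgeR, which allows for spread between cultures, the adjusted p was 0.54 for Nlrp1b and 0.821 for Gsdmd. With 0.01 it was 0.000663 and 0.00987.

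Mefv (log2 ratio −0.42), Pycard (−0.34), Nlrc4 (−0.21) and Nlrp3 (−0.20) had lower values in replicate 2, and Casp1 (0.33) and Casp4 (0.15) higher ones. The sign for Nlrc4 turned in the index-based table, where its log2 ratio was 0.01. Naip2 (0.01) and Naip5 (−0.04) were close to equal, with adjusted p of 0.874 and 0.508 in the exact test, and the sign for Naip2 turned with library totals and that for Naip5 in the index-based table. Casp1, Casp4 and Gsdmd had higher values in replicate 2, and the sensors and adaptor among the members lower or near-equal ones, but no member was called. The other sensors and NLR genes described below did not share this direction. Among the 10 of them tested, 7 had higher values in replicate 2 and 3 had lower ones. Of the 8 macrophage markers, 1 was called, Fcgr1, an antibody receptor (3576 and 7859 counts), which was higher in replicate 2. Its part, and that of RNA input, in these differences was not tested.

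Of 54 other pathway genes listed by name, 51 were found, and Naip7, Pydc3 and Pydc4 were not matched. Their median was 14.5 TPM, with 16 above the 90 percentile and 32 above the median of the reference. Of the 44 with enough counts to test, 1 was called between the libraries beside 6.62% of all genes: Nod1, a sensor of bacterial peptidoglycan, at 24.8 TPM in replicate 1 and 57.01 in replicate 2 (log2 ratio 1.07, adjusted p 6.23e-274, exact binomial test). That call was lost with library totals, which called 6.53% of all genes, and with an edgeR dispersion of 0.04, and the index-based table, which called 9.24%, called Nod1 and Nlrp12.

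Among the 12 other sensors and NLR genes found, 3 were above the 90 percentile. Nlrc5, an activator of MHC class I genes, had 105.4 TPM, and Aim2, the sensor of cytosolic DNA, had 62.79 TPM, below Nlrp3 and above Mefv. Nod1 averaged 40.91 TPM. Of the 7 other caspases, 0 were above the 90 percentile. The highest, Casp8, an apoptotic initiator that can also cut gasdermin D, had 20.04 TPM, lower than Casp1 and Casp4. Of the pore-forming and rupture genes, Ninj1, which ruptures the membrane after gasdermin pores have formed, had 58.52 TPM. This was lower than the mean of Gsdmd over all its transcripts, and Gsdme, another gasdermin, had 1.48 TPM. Gsdma, Gsdmc and Ninj2 had 0 counts in both libraries of the gene-level table, which allows a level of up to 0.146 and 0.132 CPM (counts scaled to a fixed library total) in that table. The index-based table gave Gsdma 68 and 64 estimated counts, so its count of 0 depends on the table.

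The interleukin-1 genes had higher means than every member, although replicate 2 of each lay below replicate 2 of Nlrp3. Il1b, whose product caspase-1 cuts, had 276.15 and 168.06 TPM (mean 222.1 ± 76.4, SD, n = 2), and Il1a, an interleukin-1 that calpain rather than caspase-1 matures, had 285.2 and 162.53 TPM (mean 223.9 ± 86.7, SD, n = 2). Both were lower in replicate 2, by log2 ratios of −0.83 and −0.82, without passing the 2-fold limit. Il18, named here after its value was seen, had 22.7 TPM, below Casp1, and Il18bp, which neutralises interleukin-18, had 44.68 TPM. In all, 4 of the 9 substrates and inhibitors were above the 90 percentile.

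Of the regulators and upstream factors, 17 of 18 were above the reference median and 8 above the 90 percentile. Irf1, a transcription factor of the interferon response, had 333.8 TPM, Gbp5, a guanylate-binding protein that acts on vacuoles and bacteria, 255.4 TPM, and Trim30a, a negative regulator of Nlrp3, 152.7 TPM. Gbp7 had the largest log2 ratio of this list, 0.58.

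**Figure D5:**
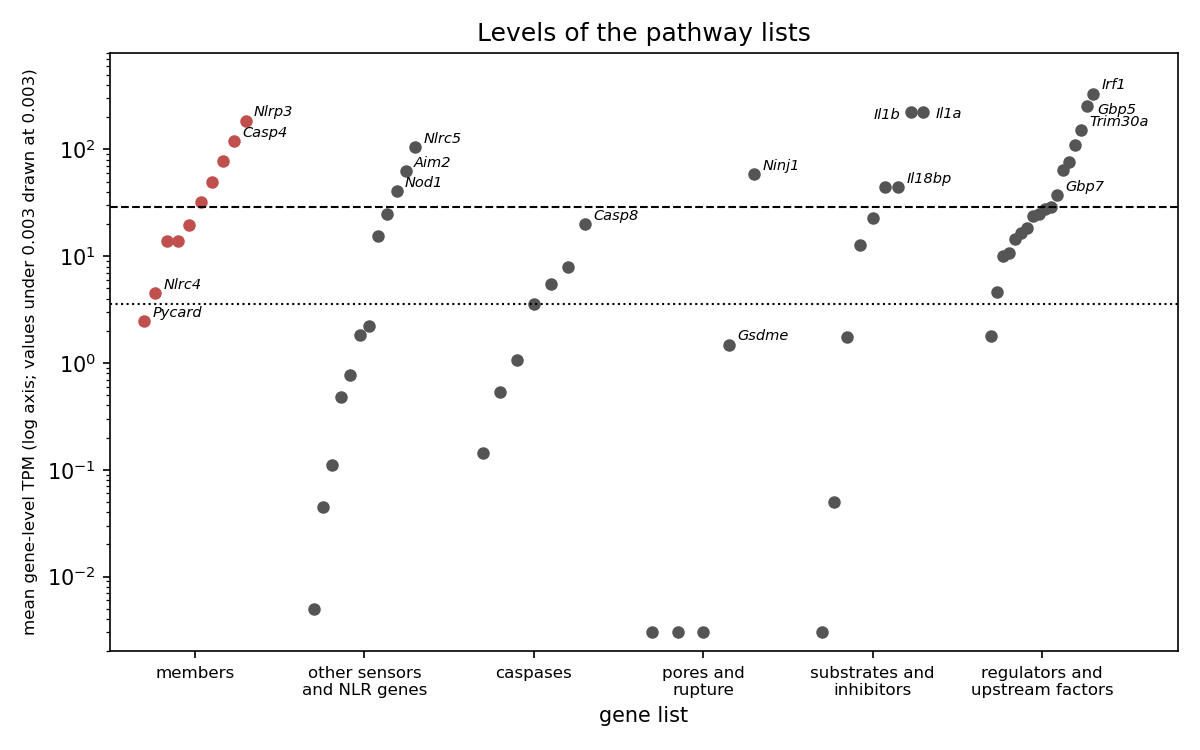
Mean gene-level TPM over both libraries (log axis) of the 10 genes (red, at left) and of the 51 other pathway genes in 5 lists (grey), sorted within each list, with the 90 percentile and the median of protein-coding genes as dashed and dotted lines. Irf1 (333.8 TPM), Gbp5 (255.4 TPM), Il1a (223.9 TPM) and Il1b (222.1 TPM) stand above Nlrp3 (186.6 TPM), and all 7 other caspases stand below the dashed line.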

How the data were processed

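The authors deposited, for each of the 2 libraries, a gene-level table, an alignment-based transcript table and an index-based transcript table, on mm10 with GENCODE M21 per the deposited file descriptions. Alignments to the transcriptome underlie the gene-level and alignment-based tables, and reads matched to a transcript index the other, with replicates kept separate. Aligner, quantifier and strand handling were not given in the sources used here. Expected counts, also called estimated counts in the index-based table, were made by the authors by dividing shared reads among transcripts, and need not be whole. The authors' TPM is the count per effective length, scaled to a fixed total. The authors' percent of a gene's abundance in each transcript was read but recomputed here from TPM. The deposited intervals of TPM have no stated level. Reads in introns that no annotated transcript holds are not in these tables.

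Rows that name no gene (26345, with 0.144% and 0.081% of counts) were left out. Counts were rounded and compared by a two-sided exact binomial test (scipy 1.17.1) against TMM library sizes (edgeR 4.0.16, R 4.3.3), adjusted over genes with at least 10 counts in the libraries together; ratios had 0.5 added to each count. A limit from a count of 0 uses 3 counts and covers counting error only. With 1 library against 1, no quasi-likelihood fit was possible. The test recovered genes of many counts that were changed in data simulated from its own model, with counting error and no spread between libraries. That simulation checks the calculation and lends no weight to the calls made here. DESeq2 1.42.0 gave size factors for an alternative. Transcript positions are from GENCODE M21 and identities from Biopython 1.88.

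The members and lists were chosen with earlier results of these data known. Named were all members, their leading transcripts and those with 10% or more of a member's TPM in either library, and in each pathway list the 3 highest genes and the 1 with the largest ratio at 100 or more counts in both libraries; exceptions are said to be so, and a few results under this rule are not reported here. No genes of like pattern were sought. The transcript groups and printed sequences were chosen after the values were seen.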

Additional observations from a re-analysis of the deposited data

How the results depend on the processing

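The count of members above the 90 percentile was 5 under posterior mean TPM, index-based TPM, TPM rescaled to protein-coding genes and leaving out either replicate (range 5 to 5), and 6 against all protein-coding genes with no filter. Their median TPM was 24.8 to 27.0 without either replicate, but 12.2 in the index-based table, where the median ratio to gene-level TPM over 7839 protein-coding genes was 0.671 and 0.316, and 120.0 with TPM rescaled to protein-coding genes, which takes other RNA out of the total. Members called between libraries stayed at 0 under 8 alternatives and were 8 by adjusted p alone. Pathway genes called were 1, against 0 with library totals, 0 with a dispersion of 0.04, 2 in the index-based table and 26 by adjusted p alone; the cause was not tested. The leading transcript was shared by 7 to 8 members without either replicate and by 8 by estimated counts. Of single values, the levels of all 10 members moved in the index-based table and 2 with posterior means, and the protein-coding share moved for 4 members in the index-based table and 3 by counts. No member's ratio was called under the settings compared, so none could count as a reversed call. The signs for Nlrc4, Naip2 and Naip5, all uncalled, turned under some settings. No paired analysis was possible because there is 1 group. The depth allows few counts for Pycard and Nlrc4, and shares of transcripts with few bases of their own depend on the table.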
